A study of Homo sapiens with 8 samples.

Results

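The subject here is a set of 33 genes that serve as markers of 5 brain cell types, read in RNA pulled down with the ribosomes of tumor cells. The set holds 13 neuron, 6 astrocyte, 6 oligodendrocyte, 5 microglia and 3 endothelial markers, and all 33 are among the 23368 gene symbols of the normalized count table. They were chosen by name, then separated by their mean over the 4 dish libraries: 8 stood at a mean of at least 50, 3 between 10 and 50, and 22 under 10. The tumor cells were H2030-BrM, a derivative of the H2030 lung adenocarcinoma line that metastasizes to brain. All 8 libraries came from cells that carried an EGFP-Rpl10a transgene (pLVX vector with hygromycin resistance), a ribosomal protein joined to a fluorescent tag, and the anti-EGFP antibodies 19C8 and 19F7 pulled the tagged ribosomes out of the lysate.

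The 4 groups had 2 libraries each. In shControl_dish and shControl_slice the cells carried a Luciferase shRNA as the control, and in shL1CAM_dish and shL1CAM_slice an shRNA against L1CAM, a neuronal-type adhesion molecule. Dish cells grew in a petri dish and were taken at 0 h. Slice cells spent 48 h on a mouse organotypic brain slice, so medium, serum, substrate and time changed together. The shRNA sequences, the number of clones, the age of the mice and the treatment of reads from mouse RNA were not stated in the sources used here.

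Marker genes of a brain cell type are those whose protein carries out that cell's specialised work. Neurons are recognised by their own forms of tubulin and intermediate filaments, by enzymes that make transmitters and by proteins of the synaptic vesicle. Oligodendrocytes are recognised by the proteins of the myelin sheath, and astrocytes by their filament protein and glutamate transporters. Few such genes are fully restricted to their cell type: the MBP gene, for example, has an upstream start used outside the nervous system, and tubulin beta III is a familiar product of lung cancers. In epithelial cells the repressor REST holds many neuronal genes down by binding a DNA element called RE1.

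Among the tested markers, 3 were higher on the slice, MBP, TUBB3 and SLC17A7, and part of the region in front of a transcription start of each is shown here. The letters come from RefSeq promoter windows on GRCh38.p14, and CG pairs are in capitals, because their density separates promoters of broadly used genes from those of restricted ones. MBP has 2 annotated starts 115.728 kb apart, and the stretch printed is from the upstream one, at chr18:77132845-77132964 on the minus strand. The TUBB3 stretch is from the second of its 2 starts, at chr16:89923159-89923278 on the plus strand, and that of SLC17A7 lies at chr19:49441552-49441671 on the minus strand.
MBP: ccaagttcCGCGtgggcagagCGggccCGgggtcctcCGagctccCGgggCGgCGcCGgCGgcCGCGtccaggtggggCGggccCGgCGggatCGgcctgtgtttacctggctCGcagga
TUBB3: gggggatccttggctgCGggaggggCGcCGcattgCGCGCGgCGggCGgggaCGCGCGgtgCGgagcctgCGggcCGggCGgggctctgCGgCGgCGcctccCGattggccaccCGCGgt
SLC17A7: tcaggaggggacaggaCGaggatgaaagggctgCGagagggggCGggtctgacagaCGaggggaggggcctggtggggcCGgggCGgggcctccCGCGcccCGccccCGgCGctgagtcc
The 120 bases held 17 CG pairs in MBP, 21 in TUBB3 and 11 in SLC17A7. Over the whole 300-base window the upstream MBP start had 44 CG pairs and its downstream start 13. The TUBB3 start shown had 47, and its first start had 9 and was not CpG-rich by the rule given below. Counts per gene do not tell the starts apart, so which of them gave the MBP or TUBB3 reads was not tested.

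RefSeq windows, each 250 bases before to 50 bases after a start, were found for 20 of the 33 markers, 47 windows in all. A window was called CpG-rich at an observed-to-expected CG ratio of at least 0.6 and a GC content of at least 50%. Among markers with a dish mean of at least 50, 35.7% of 14 windows were CpG-rich, and among those under 10, 15% of 20. Among all genes the shares were 76.5% of 12102 windows for a dish mean of at least 50 and 29.5% of 6267 for one under 10. In both classes the markers' share of windows was thus below that of genes at the same level. These shares are over starts and not over genes, and several windows can belong to 1 gene. In the higher class the 5 CpG-rich windows belonged to CNP, GAD1, MBP, SYP and TUBB3, of 7 genes with a window. MAP2 and SLC1A3 gave 3 windows each and none was CpG-rich. In the lower class the 3 CpG-rich windows belonged to ALDH1L1 and GAD2, of 11 genes. RBFOX3, with 12 windows, is in neither class. Shares over genes were not computed.

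The core of the RE1 element, the blocks CAGCACC and GGACAG set 2 bases apart and read on both strands, was present in 16 of 19770 windows of all genes (0.0809%) and in 1 of the 47 marker windows. That window belongs to GAD2, an enzyme that makes the inhibitory transmitter GABA, and the site is printed with its core in capitals, from 79 to 65 bases before the start, at chr10:26216286-26216314 on the plus strand.
GAD2: gctgtggCAGCACCCGGGACAGcggccgc
GAD2 had 1 read in a single dish library and 0 in the other 7. The count allows no mismatch and covers the 300-base windows only, and 13 of the 33 markers had no window. With up to 2 mismatches 3 marker windows matched, of GAD2, RBFOX3 and TUBB3, against 2.11% of the windows of all genes. A match describes the letters only, and binding of REST was not measured here.

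Recovered reads per library ranged from 13486212 to 16734651, and 3 reads, the limit that a count of 0 allows, equalled a normalized count of 2.75 to 3.57. Such limits and any read count cover counting error only. Replicate 2 of shL1CAM_slice stood apart: over all genes, replicates of that group differed with an SD of 0.637 on the log2 scale, and those of the other 3 with 0.218 to 0.303. The tenth of tested genes with the shortest exons was higher in it than in replicate 1, with a median log2 difference of 0.58, and the tenth with the longest exons was lower, with -0.71. In the other 3 groups those medians lay between -0.06 and 0.08, and counts of markers on the slice average are therefore given with and without this library. L1CAM itself had a mean of 461 ± 29.6 (SD, n = 2) in shControl_dish, 107 ± 26.9 (SD, n = 2) in shL1CAM_dish, 444 ± 9.30 (SD, n = 2) in shControl_slice and 70.1 ± 6.56 (SD, n = 2) in shL1CAM_slice. By limma it was lower with L1CAM shRNA both on the slice (log2 change -2.65 ± 0.21 SE, adjusted p = 0.00164) and without the slice (-2.11 ± 0.21, adjusted p = 0.00865). The dish call was lost without any one of the 4 dish libraries (adjusted p 0.104 to 0.191). Of 9 epithelial and lung markers 4 had a dish mean of at least 50: the keratins KRT8 (4981) and KRT18 (5039), MUC1 (290.2) and EPCAM (119). The others were lower, with CDH1 at 27.7, NKX2-1 at 10.5, KRT7 at 9.45, CLDN4 at 7.42 and KRT19 at 0.487.

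Most brain markers were close to 0 in the dish, but a minority was clearly present, from the 57.5th to the 96.6th percentile of all genes by dish mean. Of the 33 markers, 24.2% had a dish mean of at least 50, against 48.2% of all genes in the table. Those 8 were the neuron markers MAP2, TUBB3, SYP, NEFL and GAD1, the oligodendrocyte markers CNP and MBP and the astrocyte marker SLC1A3. Just inside the threshold was GAD1, with a dish mean of 122, and just outside it was SLC17A7, with 24.6. Microglia had 0 of 5 markers and endothelium 0 of 3 in this class. In RNA from many cells, fewer cells that express a gene and less RNA per cell cannot be told apart.

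Levels of different genes are compared here per kilobase of exon. By dish level per kilobase, TUBB3 led with 886 normalized counts per kb, followed by CNP with 703, MAP2 with 314 and MBP with 142. SYP stood at 82.0 per kb, SLC1A3 at 60.4, NEFL at 59.4 and GAD1 at 31.2. The 3 intermediate markers, SLC17A7, SNAP25 and RBFOX3, stood at 8.06, 6.50 and 4.99 per kb. Without a length correction the dish mean of CNP lay at the 96.6th percentile of all genes and that of MAP2 at the 95.8th, while GAD1 lay at the 57.5th. Exon overlap with another gene on the opposite strand touched 5 of the 11 tested markers (NEFL, GAD1, SYP, MBP and CNP). The library kit does not mark the strand, so reads of the partners cannot be told apart, and TUBB3 also shares exon sequence with a readthrough transcript on its own strand.

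**Figure D1:**
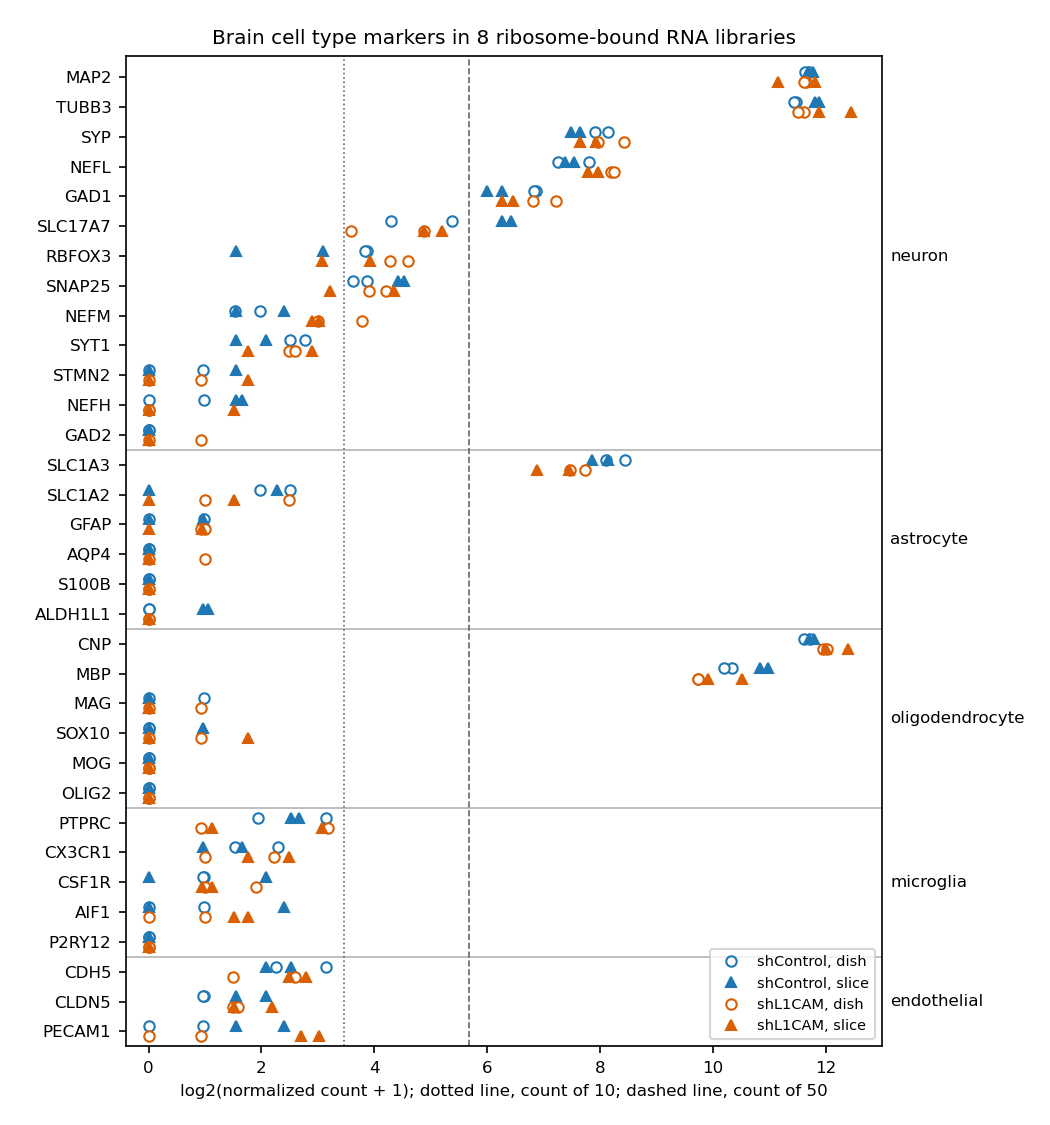
Normalized counts of the 33 brain markers on a log2(count + 1) axis, 1 symbol per library, grouped by cell type. Circles are dish and triangles slice libraries, blue control shRNA and orange L1CAM shRNA; 8 markers lie right of the dashed line at 50 by dish mean, and 22 lie left of the dotted line at 10.

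Which markers rise on the slice was asked with 4 slice against 4 dish libraries, averaging the slice response over both shRNAs. Of the 11 markers whose mean over all libraries reached 10, 6 passed (limma, Benjamini-Hochberg adjusted p under 0.05 over 13010 genes), against 37.7% of all genes tested. MBP, TUBB3 and SLC17A7 rose, where 18.6% of all genes rose. GAD1, SYP and RBFOX3 fell, where 19.1% of all genes fell. The median log2 change of the 11 markers was -0.04, and that of all genes 0.00. The same 6 markers were called without replicate 2 of shL1CAM_slice, when 57.5% of all genes were called. Without replicate 1 of shControl_slice 0 of the 11 were called (21.6% of all genes), and without 1 of any other library between 2 and 9 were (20.6% to 63.3% of all genes). All tests are two-sided. The labels call the replicates biological without saying that they were separate cultures, so p-values measure the spread between these libraries.

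Among the cytoskeletal markers, only TUBB3 was called. TUBB3 encodes tubulin beta III, the tubulin by which neurons are stained. Its normalized counts were 2862 and 2774 (shControl_dish), 3614 and 3790 (shControl_slice), 3137 and 2903 (shL1CAM_dish) and 3796 and 5592 (shL1CAM_slice). All 4 slice libraries were above all 4 dish libraries, as for 16.9% of all tested genes. The average log2 change was 0.50 ± 0.13 (SE), a 1.42-fold rise, with limma adjusted p = 0.0163. The highest value was that of the library that stands apart, and without it the rise was 0.36 ± 0.07 (SE), adjusted p = 0.000472. Leaving out any one of the 6 libraries outside shL1CAM_slice ended the call of TUBB3 (adjusted p 0.0513 to 0.0739).

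MAP2, which binds and steadies dendritic microtubules, had 3349 and 3167 (shControl_dish), 3523 and 3296 (shControl_slice), 3206 and 3149 (shL1CAM_dish) and 3580 and 2276 (shL1CAM_slice). Dish and slice libraries overlapped, and the average log2 change was -0.04 (95% interval -0.37 to 0.28, limma adjusted p = 0.826). The lowest value again came from replicate 2 of shL1CAM_slice. NEFL, the light subunit of the neurofilament, had 222 and 153 (shControl_dish), 184 and 165 (shControl_slice), 293 and 302 (shL1CAM_dish) and 220.5 and 250 (shL1CAM_slice). Its dish and slice values overlapped as well (log2 change -0.21 ± 0.15 SE, adjusted p = 0.289). The other neurofilament subunits were nearly absent: NEFM had 2 to 14 reads per library and NEFH 0 to 2.

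Other beta tubulins moved in both directions. In a list of 8 other beta tubulin genes, 7 were tested, 1 rose and 3 fell on the slice average. Of all genes tested 18.6% rose and 19.1% fell. TUBB6 fell from a dish mean of 1375 to a slice mean of 879 (log2 change -0.65 ± 0.12 SE, adjusted p = 0.00360). TUBB (-0.38, adjusted p = 0.0172) and TUBB4B (-0.49, adjusted p = 0.0319) also fell, and TUBB1, at a dish mean of 14.7, rose by 0.76 (adjusted p = 0.0369). Without replicate 2 of shL1CAM_slice the same 3 fell and 0 rose. Beta tubulin genes are similar to one another in parts of their sequence, so how the authors' counting split any shared reads among them is uncertain.

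The transmitter genes moved apart. SLC17A7 encodes the vesicular glutamate transporter of excitatory neurons. It had normalized counts of 18.6 and 40.6 (shControl_dish), 85.0 and 76.0 (shControl_slice), 28.4 and 11.04 (shL1CAM_dish) and 28.6 and 35.7 (shL1CAM_slice). With control shRNA both slice values were above both dish values, but the shL1CAM_slice values lay within the range of the dish libraries. Here and below, the share of all genes that separate in this way within an shRNA is not given, so such separations describe the values only. The average log2 change was 1.16 ± 0.33 (SE), a 2.24-fold rise, with limma adjusted p = 0.0247. The call ended without replicate 1 of shControl_dish, either library of shControl_slice or replicate 2 of shL1CAM_dish (adjusted p 0.0656 to 0.0954). By shRNA it was 1.51 ± 0.47 with control (adjusted p = 0.0633) and 0.81 ± 0.47 with L1CAM shRNA (adjusted p = 0.243), and the difference between them was not called (interaction -0.70 ± 0.67, adjusted p = 0.970).

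GAD1 makes GABA from glutamate and marks inhibitory neurons. Its normalized counts were 115 and 113 (shControl_dish), 63.0 and 76.0 (shControl_slice), 112 and 148 (shL1CAM_dish) and 75.6 and 86.9 (shL1CAM_slice). All 4 slice libraries were below all 4 dish libraries, as for 18.2% of all tested genes. The average log2 change was -0.69 ± 0.16 (SE), 1.61-fold lower, with adjusted p = 0.00913, and the call held in 7 of the 8 fits that left 1 library out. The exception was the fit without replicate 1 of shControl_slice (-0.62, adjusted p = 0.0532). Its sister enzyme GAD2, which holds the RE1 core, was at 0 in every slice library.

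SYP, the synaptic vesicle membrane protein synaptophysin, had 239 and 281 (shControl_dish), 178 and 200 (shControl_slice), 342 and 250 (shL1CAM_dish) and 198 and 244 (shL1CAM_slice). Each slice pair was below its own dish pair, while the highest slice value exceeded the lowest dish value. The average log2 change was -0.43 ± 0.15 (SE), with adjusted p = 0.0480. The call ended with no filter on low genes (adjusted p = 0.0707), with TMM scaling (0.0501), with the replicate block (0.0585) and without any one of the 4 control shRNA libraries or replicate 1 of shL1CAM_dish (0.0858 to 0.170).

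RBFOX3, which encodes the neuronal nuclear antigen NeuN, was low throughout. It had 13.7 and 13.2 (shControl_dish), 1.91 and 7.49 (shControl_slice), 18.3 and 23.1 (shL1CAM_dish) and 7.38 and 14.3 (shL1CAM_slice). The average log2 change was -1.24 ± 0.38 (SE), 2.35-fold lower, with adjusted p = 0.0325, on 2 to 23 reads per library. That call ended with no filter on low genes (adjusted p = 0.0510), with DESeq2 (0.0584) and without any one of the 4 dish libraries or replicate 1 of shControl_slice (0.0812 to 0.113). SNAP25, a membrane fusion protein of the synapse, stood at 13.7 and 11.3 (shControl_dish), 21.96 and 20.3 (shControl_slice), 17.4 and 14.1 (shL1CAM_dish) and 19.4 and 8.33 (shL1CAM_slice). With control shRNA both slice values were above all 4 dish values, but replicate 2 of shL1CAM_slice was below them all. Averaged over both shRNAs its log2 change was 0.22 ± 0.29 (SE), adjusted p = 0.571.

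**Figure D2:**
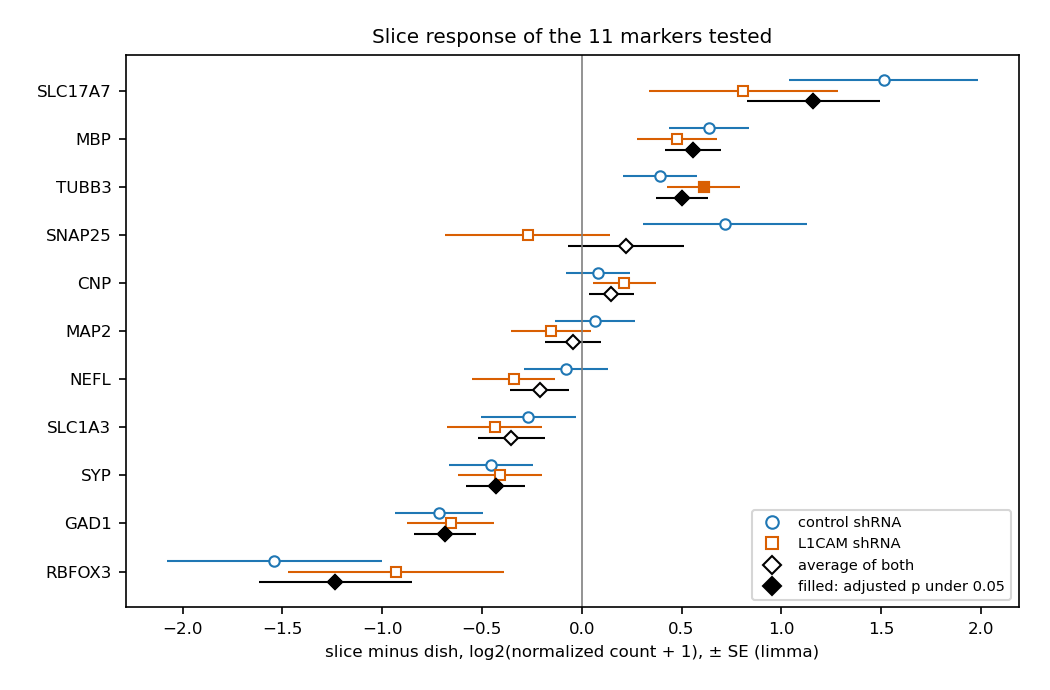
Slice minus dish differences of the 11 tested markers on the log2(normalized count + 1) scale, with SE from the limma fit. Circles are control shRNA, squares L1CAM shRNA and diamonds their average; filled symbols passed, which holds for 6 averages and for TUBB3 with L1CAM shRNA.

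Among the glial markers, MBP rose and the others were not called. MBP encodes myelin basic protein, which compacts the myelin sheath. Its normalized counts were 1293 and 1181 (shControl_dish), 2030.3 and 1821 (shControl_slice), 855 and 856 (shL1CAM_dish) and 1473 and 961 (shL1CAM_slice). Each slice pair was above its own dish pair, but replicate 2 of shL1CAM_slice lay below both control dish libraries, so the 4 and 4 overlapped. The average log2 change was 0.56 ± 0.14 (SE), a 1.47-fold rise, with limma adjusted p = 0.0149. Without replicate 2 of shL1CAM_slice it was 0.71 ± 0.07 (SE), adjusted p = 3.99e-06. The call ended without replicate 2 of shControl_dish, replicate 1 of shControl_slice or either library of shL1CAM_dish (adjusted p 0.0583 to 0.0695).

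CNP, a membrane-bound enzyme of myelin-forming cells, had 3373 and 3126 (shControl_dish), 3324 and 3547 (shControl_slice), 3990 and 4186 (shL1CAM_dish) and 4141 and 5423 (shL1CAM_slice). Its dish and slice libraries overlapped (log2 change 0.15 ± 0.11 SE, 95% interval -0.11 to 0.40, adjusted p = 0.329). SLC1A3, the glutamate transporter GLAST of astrocytes, had 347 and 274 (shControl_dish), 282 and 232 (shControl_slice), 212 and 176 (shL1CAM_dish) and 173 and 117 (shL1CAM_slice). The average difference was -0.35 ± 0.17 (SE) on the log2 scale and did not pass (adjusted p = 0.132). Its values separated by shRNA rather than by culture: each value with L1CAM shRNA was below each value with control shRNA.

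**Figure D3:**
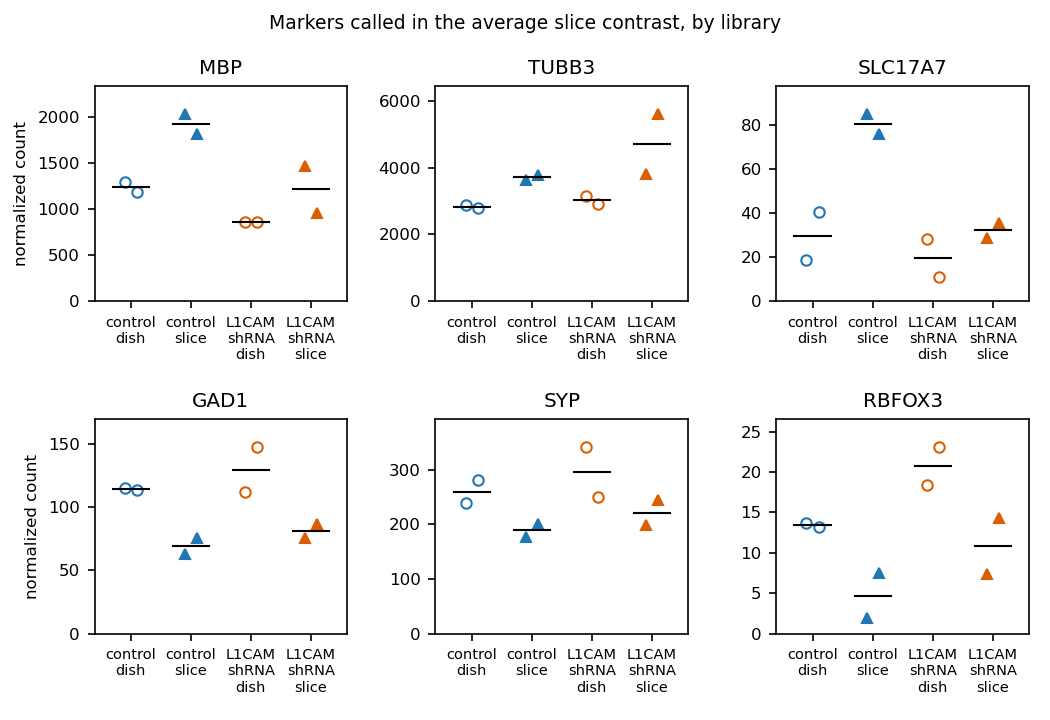
Normalized counts of the 6 markers that passed in the average slice contrast, on linear axes that start at 0, with 1 symbol per library and a bar at each group mean. The upper row rose and the lower row fell; all 4 slice libraries clear all 4 dish libraries for TUBB3 and GAD1, not for the other 4.

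Taken 1 shRNA at a time, few markers passed. With control shRNA alone, 0 of 11 passed, against 14.8% of all genes tested, while 4 had an unadjusted p under 0.05 (GAD1, SLC17A7, MBP and RBFOX3, with adjusted p 0.0599 to 0.0884). The quasi-likelihood test of edgeR on the recovered reads called SLC17A7, and DESeq2 called SLC17A7 and MBP. With L1CAM shRNA alone, TUBB3 was called (log2 change 0.61 ± 0.18 SE, limma adjusted p = 0.0457), 1 of 11 against 21.3% of all genes called in either direction and 10.1% called higher. This call ended with no filter on low genes (adjusted p = 0.0687) and without any one of the 6 libraries outside shL1CAM_slice (0.0905 to 0.204). When replicate 2 of shL1CAM_slice was left out, the 6 markers of the average were all called with control shRNA (47% of all genes), and GAD1, MBP, SYP and TUBB3 with L1CAM shRNA (38.7%). The interaction, which tests whether the slice response differed between shRNAs, called 0 of 11 markers with limma, 0 at an unadjusted p under 0.05, and 0 with edgeR and DESeq2. It called 0% of all genes. Without replicate 1 of shL1CAM_slice, which leaves that group to the library that stands apart, it called 4 of 11 markers (MAP2, MBP, SNAP25 and TUBB3) and 31.8% of all genes.

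L1CAM knockdown was compared with control shRNA in each culture. On the slice 0 of 11 markers passed, against 0.646% of all genes, and in the dish 0 of 11 against 0.307%. The counts by edgeR and DESeq2 were also 0 in both cultures, and 4 and 3 markers had an unadjusted p under 0.05 by limma. These were SLC1A3 (-0.84 on the slice, adjusted p = 0.165; -0.67 in the dish, adjusted p = 0.394), MBP (-0.69, adjusted p = 0.170; -0.53, adjusted p = 0.434), CNP and SLC17A7 on the slice, and NEFL in the dish (0.69, adjusted p = 0.301). Both knockdown libraries lay on the same side of both controls in each culture for 5 of the 11: above for TUBB3, NEFL and CNP, and below for SLC1A3 and MBP, where 28.4% of all tested genes did so. Without replicate 2 of shL1CAM_slice the dish contrast called 4 of 11 (CNP and NEFL higher, MBP and SLC1A3 lower), against 11% of all genes. The slice contrast without that library called 0 (4.67% of all genes), and without replicate 1 of the same group 8 (53%). The log2 differences in the dish were then 0.33 ± 0.09 (SE) for CNP (adjusted p = 0.0271), 0.69 ± 0.17 for NEFL (0.0182), -0.53 ± 0.09 for MBP (0.00338) and -0.67 ± 0.16 for SLC1A3 (0.0157).

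The remaining 22 markers stayed near 0 in both cultures. S100B of astrocytes, MOG and OLIG2 of oligodendrocytes and P2RY12 of microglia had 0 reads in all 8 libraries. A further 10 markers never passed 3 reads in a library, and NEFM was the sole one with at least 10 reads in any (14, in replicate 1 of shL1CAM_dish). Summed over the 22, reads per library were 25 to 42 in the dish and 30 to 48 on the slice, or normalized counts of 23.6 to 38.5 and 28.6 to 44.3. The ranges overlapped between the cultures.

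By cell type, the 5 low neuron markers summed to 8 to 21 reads per dish library and 8 to 16 per slice library. Low astrocyte markers, GFAP, AQP4, S100B, SLC1A2 and ALDH1L1, summed to 3 to 6 and 0 to 6. The low oligodendrocyte markers MOG, MAG, SOX10 and OLIG2 had 0 to 2 reads in each culture. The 5 microglia markers, CX3CR1, P2RY12, AIF1, PTPRC and CSF1R, had 6 to 14 in the dish and 6 to 16 on the slice. The 3 endothelial markers had 5 to 9 in the dish and 9 to 14 on the slice. For 12 further markers of blood vessels with a dish mean under 10, not all of them endothelial, the sums went the other way. They were 34 to 46 in the dish and 22 to 32 on the slice. All 49 further low markers, these included, summed to 73 to 110 in the dish and 71 to 83 on the slice.

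PECAM1, an adhesion molecule at the junctions of endothelial cells, was the sole one of the 22 low markers whose slice libraries were all above its dish libraries. Of all tested genes 16.9% separated in this way, and the share among genes as low as these was not computed. It is named after its values were seen. Its reads were 0 and 1 (shControl_dish), 2 and 4 (shControl_slice), 1 and 0 (shL1CAM_dish) and 6 and 6 (shL1CAM_slice). Those counts are at or under the limit of 3 in 5 of the 8 libraries, and it entered no test with the filter at a mean of 10. With no filter limma called it (adjusted p = 0.00794 for the average), as it called 5 of 29 markers and 25.1% of all genes. The endothelial markers CDH5 and CLDN5 overlapped between dish and slice, with 2 to 8 and 1 to 3 reads per library.

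**Figure D4:**
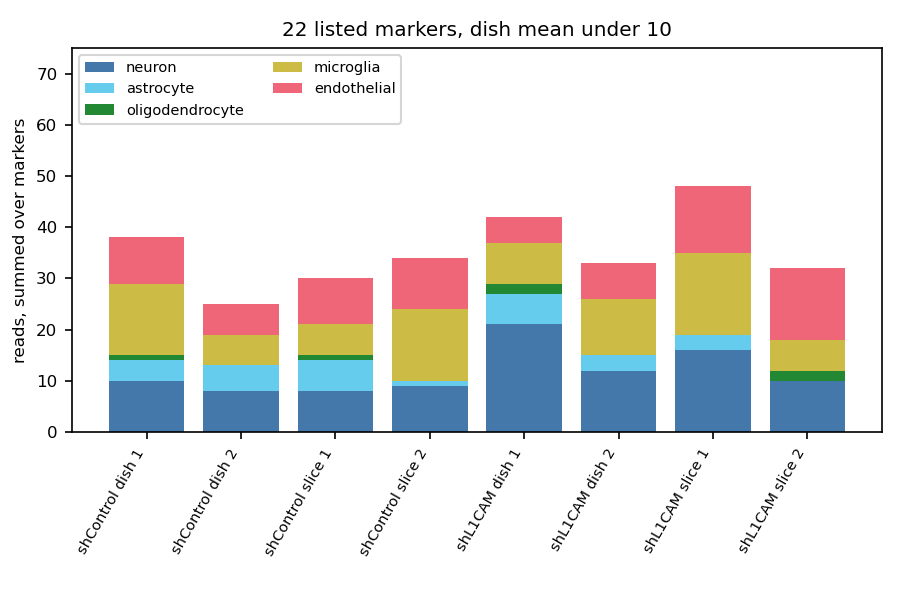
Reads summed over the 22 listed markers with a dish mean under 10, stacked by cell type, with 1 bar per library. The totals are 25 to 42 in the dish and 30 to 48 on the slice, and these ranges overlap.

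Further markers of the same cell types, from lists outside the 33, were read in the same way. Their counts stand beside 18.6% of all tested genes that rose and 19.1% that fell on the slice average. The larger share of all genes called without replicate 2 of shL1CAM_slice is given above. Of 19 further neuron markers 8 were tested: VSNL1, a calcium sensor (log2 change 1.06, adjusted p = 0.0105), and CPLX1, a synaptic vesicle fusion regulator (0.64, adjusted p = 0.0151), rose and 0 fell. Of 14 further astrocyte markers 9 were tested, and only the gap junction gene GJA1 was called, falling by 0.69 (adjusted p = 0.00328). Of 13 further microglia markers 1 was tested and not called. Of 15 further markers of blood vessels 3 were tested, and this list includes genes of pericytes and smooth muscle beside those of endothelium. The glucose transporter SLC2A1 fell by 1.06 (adjusted p = 0.000336) from a dish mean of 2749, a level at which it is not specific to endothelium here. Without replicate 2 of shL1CAM_slice the calls of these 4 lists were the same, except that NRGN of the neuron list fell and SOX9 of the astrocyte list rose.

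Of 14 further oligodendrocyte markers 5 were tested, 2 rose and 1 fell, where 18.6% of all tested genes rose and 19.1% fell. NKX2-2, a transcription factor of the oligodendrocyte lineage, rose from a dish mean of 117 to 256 (1.12, adjusted p = 0.00127), and GPR37 rose from 442 to 828 (0.92, adjusted p = 0.00308). PDGFRA, the receptor that marks their precursors, fell from 27.7 to 5.22 (-2.14, adjusted p = 0.00194). The same 3 were called without replicate 2 of shL1CAM_slice.

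Of the listed oligodendrocyte markers, MOG, OLIG2 and MAG were at 0 in every slice library, and SOX10 had 3 reads over the 4 of them, against 1 in the dish. Whether RNA of the slice contributed to any listed marker was not tested.

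For the repression of neuronal genes, all 8 members of a list of REST, its corepressors and the splicing regulator PTBP1 had a dish mean of at least 50. On the slice average 0 rose and 3 fell: PTBP1 (-0.41, adjusted p = 0.0146), HDAC2 (-0.33, adjusted p = 0.0255) and KDM1A (-0.29, adjusted p = 0.0348). For this list and those below, 18.6% of all tested genes rose and 19.1% fell. The larger share of all genes called without replicate 2 of shL1CAM_slice is given above. REST itself had a dish mean of 769 and a slice mean of 935, and did not pass (adjusted p = 0.324). Without replicate 2 of shL1CAM_slice, 2 of the list rose (REST and RCOR1) and 4 fell, HDAC1 with the 3 above. Of 9 epithelial and lung markers 6 were tested and 2 rose, CLDN4 (2.85, adjusted p = 0.00012) and MUC1 (1.68, adjusted p = 0.000173), and 0 fell. Of 7 neuroendocrine markers 2 were tested, and CHGB, a protein of secretory granules, rose by 1.28 (adjusted p = 0.00367). Its mean went from 16.7 in the dish to 26.2 on the slice with control shRNA, and from 16.4 to 63.2 with L1CAM shRNA. Of the 2 tested, 0 were called with control shRNA alone, 1 with L1CAM shRNA alone and 0 in the interaction. Without replicate 2 of shL1CAM_slice KRT8 and KRT18 fell and NCAM1 rose in addition.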

How the data were processed

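RNA bound to EGFP-tagged ribosomes was sequenced from 8 libraries, 2 in each of 4 groups. The deposited table holds a normalized signal, and the values show that the authors divided the reads of each library by a single size factor: 100% of them gave whole reads to within 1e-06. HTSeq 0.5.4, FastQC 0.11.3, DESeq2 and the builds GRCh37 and hg19 appear in the submitters' processing notes. Aligner and annotation were not stated in the sources used here. Per the labels, the libraries were made with a poly-A kit that does not keep the strand.

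The normalized counts were analysed as log2 (value + 1), so log2 changes understate those of low genes. Genes whose mean over all libraries reached 10 (13010 of 23368) entered 1 limma fit of the 4 group means (limma 3.58.1, R 4.3.3, eBayes with trend). The p-values of its 6 contrasts were adjusted by Benjamini-Hochberg over all genes, with a threshold of 0.05. Exon lengths are GENCODE 29 exon unions on GRCh38, a later build than that of the files. Alternatives were a pseudocount of 10, no filter, a minimum mean of 50, TMM scaling, edgeR 4.0.16, DESeq2 1.42.0, a replicate block, and each library left out. On the recovered reads edgeR called 4960 genes in the average slice contrast and limma 4899. The script was tested on simulated data.

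The markers, the lists and the tests were chosen with earlier results of these data known. Named are L1CAM, each listed marker with a mean of at least 10, low markers with at least 10 reads in a library, and up to 4 genes of each other list by smallest p in the average slice contrast. Others are said to be named after their values were seen, apart from low markers named as being at or near 0, KRT8, KRT18 and REST. A few genes of the other lists are not reported here and were left out of the counts over those lists.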

Additional observations from a re-analysis of the deposited data

How the results depend on the processing

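The split at a dish mean of 50 held 8 markers with a threshold of 25 or 100 as well. For the slice response with control shRNA, the count of markers called went from 0 of 11 to 1 with a pseudocount of 10 (SLC17A7), 1 with edgeR, 2 with DESeq2 and 1 with the replicate block (MBP). With 1 library left out, counts ranged from 0 to 6 for that comparison (0.0538% to 47% of all genes), 0 to 5 for the slice response with L1CAM shRNA (2.62% to 57.7%), 0 to 9 for the average (20.6% to 63.3%), 0 to 8 for the knockdown on the slice (0.0307% to 53%), 0 to 4 for the knockdown in the dish (0% to 11%) and 0 to 4 for the interaction (0% to 31.8%). The higher counts of the knockdown on the slice (8) and the interaction (4) came without replicate 1 of shL1CAM_slice, which leaves that group to the library that stands apart, and the fit then assumes that a lone library varies like the other groups. Of the markers called with all 8 libraries, 0 reversed direction in that comparison under these alternatives.

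The same replicate numbers run through all groups, but the labels do not say that a number marks a shared day or batch. Replicate differences correlated across genes at -0.38 to 0.19 over the 6 pairs of groups, so the numbers were not taken as pairs. With the replicate block the call of SYP ended (adjusted p = 0.0585), and beside the count with control shRNA, from 0 to 1, the counts stayed within 1.5 times. Depth limits the 22 low markers: a count of 0 allows up to 3 reads, and none of them entered a test with the filter at a mean of 10. The smallest change that could be detected was not computed.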
